A study of Mus musculus with 8 samples.

Results

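Group 2 innate lymphoid cells (ILC2s) were sought among colonic lamina propria cells of 8 mouse single-cell libraries as barcodes that carried Gata3 and ILC2 effector transcripts and no Cd3 transcript. A barcode was a member when it had at least 400 genes and under 20% mitochondrial UMIs (unique molecular identifiers, 1 per captured transcript), no UMI of Cd3e, Cd3d, Cd3g, Foxp3 or Cpa3, at least 1 UMI of Gata3, at least 2 UMIs summed over Il1rl1, Areg, Calca, Il5 and Il13, and at most 1 UMI each of Cd79a, Col3a1 and C1qa. This rule found 224 members among 96721 barcodes within the gene and mitochondrial limits, a share of 0.232%. The members numbered 46 and 16 in the wildtype untreated libraries, 26 and 17 in the mutant untreated, 26 and 31 in the wildtype DSS, and 37 and 25 in the mutant DSS libraries. The members were chosen by the measured UMIs of these genes, so the rule genes are described below and not tested.

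All mice were C57BL/6 and 10 to 12 weeks old, either wildtype or carrying a mutant RORgt, a transcription factor, which the labels call RORgtS182A in the series text and S203AKI in the sample titles. Treated mice drank 2% DSS (dextran sulfate sodium, which injures the colonic epithelium) for 7 days and water for 3 days, and untreated mice drank water; both were harvested on day 10. Each of the 4 groups had 2 libraries. Cells had passed through a CD4+ T cell isolation kit, so the innate lymphoid cells described here are those that remained after a selection for another cell type. A point mutation leaves no mark in UMI counts, so the genotype labels could not be checked from the data.

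ILC2s are tissue-resident lymphocytes without an antigen receptor. They depend on the transcription factors GATA3 and RORα, respond to epithelial alarmins such as IL-33 (whose receptor subunit ST2 is encoded by Il1rl1), and release IL-5, IL-13 and amphiregulin, which act on eosinophils, mucus production and epithelial repair. Helper and regulatory T cells of the gut can express Gata3, Il1rl1 and Areg as well, and differ from ILC2s by their T-cell receptor complex, of which the Cd3 genes encode the signalling chains.

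The libraries held 34497509 to 46960005 UMIs and 10340 to 15370 barcodes within the limits. Of 95624 distinct barcode sequences within the limits, 1088 occurred in 2 or more libraries. The authors' deposited cell list, with 27420 barcodes, held 27 of the 224 members. No doublet caller was run.

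The label did not hold for every member. In the DSS libraries 27 of 119 members, and in the untreated libraries 2 of 105, carried 2 or more UMIs of epithelial genes, counted over 10 squamous and 11 columnar epithelial markers. Of these 29 members, 26 held Krt5 or Krt14, keratins of stratified squamous epithelium, and 22 met the effector threshold through Areg alone. Their median was 24882 UMIs, against 1832 in the other 195 members, and they contributed 65.5% of all member UMIs. They made up 1 and 10 of the members of the wildtype DSS libraries and 5 and 11 of those of the mutant DSS libraries. In wildtype DSS 2, mutant DSS 1 and mutant DSS 2 they held 76.4%, 75.4% and 93.7% of the summed UMIs. Of the 27 in DSS libraries, 1 had an Il1rl1 UMI 0 had an Il5 or Il13 UMI, and 12 had a UMI of Hs3st1, Arg1, Csf2 or Ccl1, genes described below. Results are therefore given for all members and for the 195 members with fewer than 2 epithelial UMIs, a split chosen after seeing the data; 103 of the 195 came from untreated and 92 from DSS libraries.

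**Figure D1:**
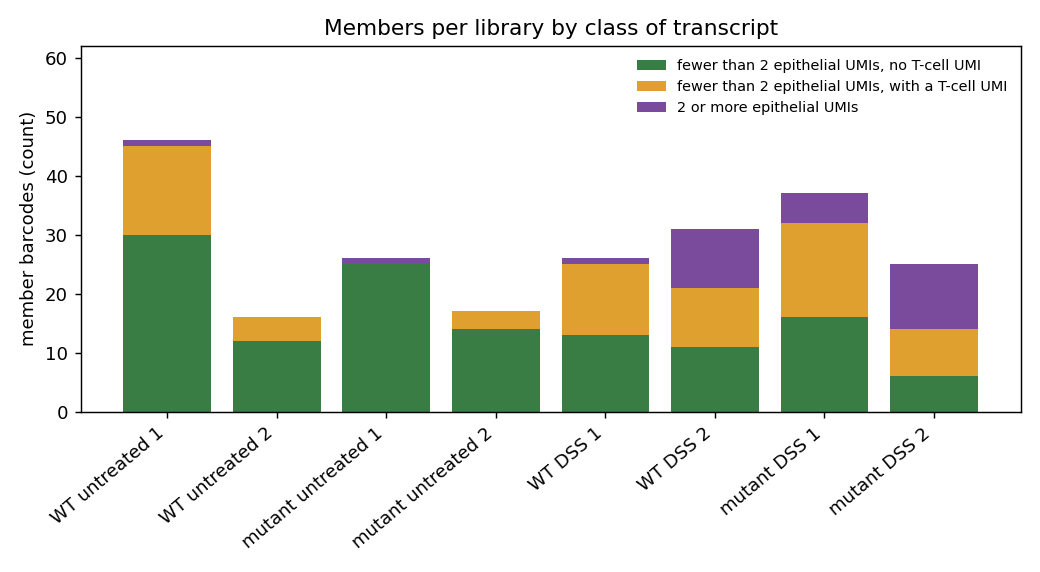
Member barcodes per library (bars, counts), stacked by class of transcript: members with 2 or more epithelial UMIs, other members with a UMI of Trac, Trdc, Cd4, Cd8a or Cd8b1 ("T-cell UMI"), and the rest. The members with epithelial UMIs were 27 in DSS and 2 in untreated libraries.

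A second class remained among the 195. Although none had a Cd3 UMI, 22 of the 103 untreated and 46 of the 92 DSS members carried a UMI of Trac, Trdc, Cd4, Cd8a or Cd8b1. Summed over 13 T-cell genes, of which Cd8a and Trdc were at 0, the level ranged from 794 to 1844 CPM (UMIs of the genes scaled to a common library total) in the untreated libraries and from 1376 to 2637 CPM in the DSS libraries. Of 11 mast cell and basophil markers, Ms4a2, Fcer1a, Mcpt1, Mcpt2, Mcpt4, Mcpt8, Cma1, Tpsb2 and Cyp11a1 were at 0 in all 195; Hdc was found in 11 untreated and 6 DSS members and Gata2 in 1 untreated member, and the list summed to 0 to 164 CPM per library. The myeloid genes stood at 44.8 to 252 CPM in 7 of the libraries and at 2168 CPM in wildtype DSS 2, where 1 member held most of them. The MHC class II genes, of antigen-presenting cells, stood at 6581 CPM in mutant untreated 1 and 9823 CPM in wildtype DSS 2, where 1 member of each held most of them, against 388 to 1498 CPM in the other 6 libraries. Igha, a plasma cell transcript, was found in 61.2% of untreated and 82.6% of DSS members. Col3a1-rich, Cd3-negative barcodes (at least 5 Col3a1 UMIs), which should not express it, had Igha in 63.0% and 86.4%; at a matched depth of 1000 UMIs the shares were 40.8% and 65.8% in members and 23.4% and 43.5% in those barcodes. At the edge of the rule, 44 of all 224 members, 40 of them among the 195, had exactly 2 effector UMIs. Of the 44, 15.9% had a Trac UMI, whereas 31.1% of the 106 barcodes with 1 effector UMI did. Among the 204 barcodes with a single Cd3 UMI, 47.5% had one. Epithelial-transcript barcodes were left in each of these sets.

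**Figure D2:**
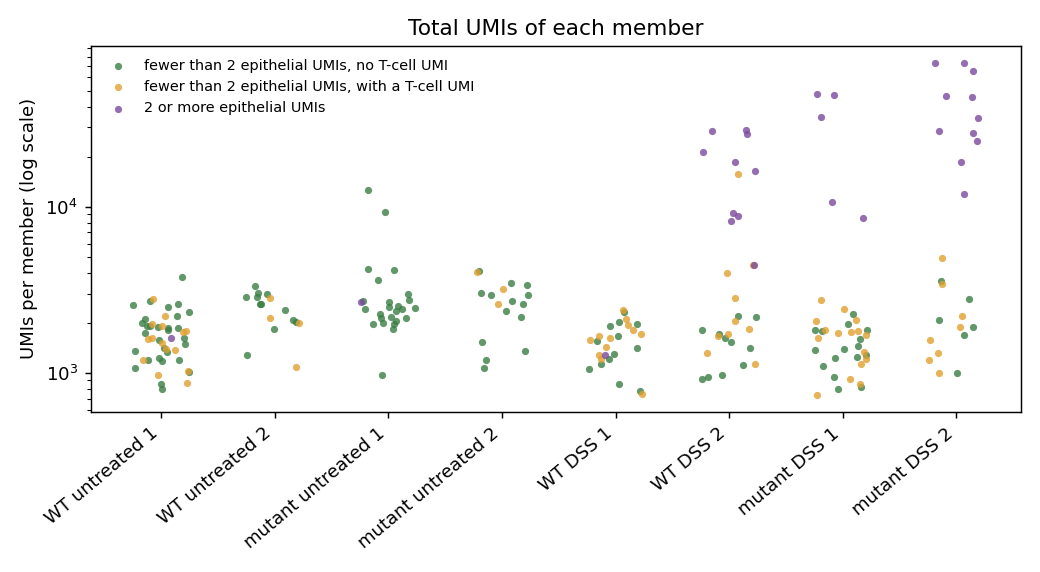
Total UMIs of each member (points, log axis) by library and class. The members with 2 or more epithelial UMIs reach 73755 UMIs, while the other members have a median of 1832.

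A zero of Cd3 depends on depth. When each barcode with at least 1000 UMIs was thinned to 1000 UMIs and the rule applied again, 208 barcodes passed, of which 108 were members. Of the 208, 97 (46.6%) had shown a Cd3 or Foxp3 UMI before thinning: 37 of 99 in the untreated and 60 of 109 in the DSS libraries. The share of such barcodes was thus 37.4% without and 55.0% with DSS. How many of the members are T cells was not tested.

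The rule genes of the 195 members are described by condition, without a test. Gata3, which the rule required, stood at exactly 1 UMI in 41 of 103 untreated and 53 of 92 DSS members. Areg was found in 88 of 103 untreated (85.4%, exact 95% interval 77.1% to 91.6%) and 64 of 92 DSS members (69.6%, 59.1% to 78.7%). Il1rl1 was found in 51 of 103 and 51 of 92. Calca, which encodes the neuropeptide CGRP, was found in 27 of 103 and 20 of 92. Il5, the eosinophil growth factor, was found in 38 of 103 untreated (36.9%, 27.6% to 47.0%) and 8 of 92 DSS members (8.70%, 3.83% to 16.4%), and Il13 in 30 and 7. At least 1 of Il5 and Il13 was present in 50 untreated members (48.5%) and 12 DSS members (13.0%). Areg alone brought 22 of 103 untreated and 32 of 92 DSS members over the threshold. The summed level of Il5 was 558 and 1081 CPM in the wildtype untreated, 958 and 291 CPM in the mutant untreated, 129 and 37.7 CPM in the wildtype DSS, and 328 and 98.4 CPM in the mutant DSS libraries. Il13 stood at 247, 264, 416 and 695 CPM in the untreated libraries in the same order, at 0 in both wildtype DSS libraries and at 390 and 197 CPM in the mutant DSS libraries. Il5 was thus higher in 3 of the 4 untreated libraries than in any DSS library, and Il13 overlapped between the treatments. The exact intervals cover counting error only, as members of 1 library share a sample.

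Genes that the rule did not use bore on the ILC2 label in part. Of 25 further ILC2-associated genes, 24 had a UMI among the 195 members, and Nmur1, the neuromedin U receptor of many ILC2s, had none. Rora was found in 166 members (85.1%), Id2, a transcriptional regulator common to innate lymphoid cells, in 138, Icos in 124, Il7r in 98 and Ptpn13 in 74. Of the 204 barcodes with a single Cd3 UMI, 84.3% had Rora, 69.6% Icos and 45.1% Il7r. Klrg1 was found in 38, Il17rb, the IL-25 receptor subunit, in 23, Gfi1 in 4 and Ptgdr2, the prostaglandin D2 receptor, in 1. Hs3st1, a heparan sulfate sulfotransferase, was found in 48 members and Arg1, the arginine-degrading arginase of ILC2s, in 34. Csf2, which encodes GM-CSF, was found in 26 and Ccl1, a chemokine for CCR8-bearing cells, in 18.

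Hs3st1, Arg1, Csf2 and Ccl1 are treated as a set below because they were among the genes most increased over the Cd3-positive counterpart in untreated libraries; the set was chosen after its values were seen. The untreated values chose the set, so a lower share in DSS members was favoured by the choice and the shares are a description. At least 1 of the 4 was found in 53 of 103 untreated members (51.5%) and 12 of 92 DSS members (13.0%). Of the 42 members that had both one of these genes and Il5 or Il13, 35 were untreated and 7 were from DSS libraries. These were 35 of the 50 untreated and 7 of the 12 DSS members with Il5 or Il13. Among members without Il5 or Il13, 18 of 53 untreated and 5 of 80 DSS members had one of the 4 genes. The 250 bases upstream of the annotated start of Hs3st1 (chr5:39644632-39644881, minus strand), Csf2 (chr11:54249900-54250149, minus strand) and Ccl1 (chr11:82179813-82180062, minus strand) are shown 5′ to 3′ from RefSeq, build GRCm38.p6, since GATA3 is the factor the rule selects for. Capitals mark a GATA motif on either strand, searched as AGATAA, the variant with a final G (AGATAG), and the forms that begin with T (TGATAA and then TGATAG).
Hs3st1: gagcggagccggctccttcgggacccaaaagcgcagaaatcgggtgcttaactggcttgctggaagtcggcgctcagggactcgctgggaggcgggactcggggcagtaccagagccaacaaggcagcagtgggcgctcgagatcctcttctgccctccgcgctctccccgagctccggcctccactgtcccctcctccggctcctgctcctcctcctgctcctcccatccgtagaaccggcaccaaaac
Csf2: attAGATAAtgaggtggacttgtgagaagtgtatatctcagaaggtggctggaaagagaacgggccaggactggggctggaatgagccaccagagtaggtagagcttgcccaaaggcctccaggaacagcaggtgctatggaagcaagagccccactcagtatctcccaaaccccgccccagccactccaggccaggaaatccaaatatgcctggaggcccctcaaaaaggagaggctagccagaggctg
Ccl1: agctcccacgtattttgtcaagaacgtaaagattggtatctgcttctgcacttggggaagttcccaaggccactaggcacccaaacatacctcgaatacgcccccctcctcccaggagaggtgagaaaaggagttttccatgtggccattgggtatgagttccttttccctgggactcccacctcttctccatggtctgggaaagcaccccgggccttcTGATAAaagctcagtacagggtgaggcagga
Csf2 and Ccl1 each had 1 match and Hs3st1 had 0, and none of the 3 windows held the AP-1 letters TGACTCA, or their reverse complement TGAGTCA. Of 32851 promoter windows of this length, 26.5% held a GATA match and 4.46% an AP-1 match on either strand. A match is thus common and is a description of the letters only. Arg1 was looked up too, but the promoter source had no entry for it.

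The first comparison set the members against their closest relatives by gate, 1402 barcodes that met the same rule but had at least 1 Cd3 UMI. Counts were summed per library and population and fitted with edgeR's quasi-likelihood test with library as a block, over the genes no gate used. A summed level cannot tell fewer positive cells from less RNA per cell. With all members, 373 of 5090 genes (7.33%) were called at an adjusted p under 0.05, 149 higher (2.93%) and 224 lower (4.4%) in members; 3647 genes could be tested without the epithelial-transcript members, of which 253 (6.94%) were called, 176 higher (4.83%) and 77 lower (2.11%). The called sets shared 84 genes, 22.5% of the first and 33.2% of the second. With RLE size factors, 202 of the calls over all members were higher and 174 lower, and with DESeq2 57 were higher and 1525 lower, where the median log2 difference of all genes moved from -0.06 to -0.56.

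In the 4 untreated libraries the members without epithelial transcripts differed from the Cd3-positive counterpart in 380 of 3929 genes (9.67%), 267 higher (6.8%) and 113 lower (2.88%). Hs3st1 stood at 208, 1081, 441 and 628 CPM in members and at 3.91, 3.88, 3.35 and 1.32 CPM in the counterpart, a log2 difference of 7.60 ± 0.41 (SE; edgeR, adjusted p = 6.05e-16). Arg1 stood at 130, 395, 340 and 291 CPM against 3.91, 6.47, 3.35 and 1.32 CPM (log2 difference 6.36 ± 0.46, edgeR adjusted p = 8.83e-13). Both genes were higher in members than in the counterpart in each untreated library. They were picked as among the largest increases of this same fit, so this separation was favoured by the choice. Csf2 was higher by 5.37 ± 0.45 (edgeR, adjusted p = 4.42e-11) and Ccl1 by 4.37 ± 0.49 (adjusted p = 2.99e-08) on the log2 scale. The other genes with the 10 largest increases were Klf5, with 24 UMIs in members and 1 in the counterpart, and Eepd1, Bmp2, Rab27b, Slc7a8 and Hes1, a Notch target, with log2 differences of 4.08 to 5.58.

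By list, the untreated members carried 8 of 18 tested ILC2-associated genes at a higher and 1 at a lower level: Hs3st1, Arg1, Klrg1, Ptpn13, Il2ra, Id2, Il7r and Rora were higher and Il18r1 lower. Hs3st1 and Arg1, like Csf2 and Ccl1 below, were picked above from this same fit. The lists were chosen with earlier results of these data known, so the counts by list are a description. The ILC2 list's median log2 difference was 0.54, beside -0.10 over all genes tested. Among receptors for alarmins, neuropeptides and lipids, 4 of 14 were higher, among them Ramp1, part of the CGRP receptor (log2 difference 2.47 ± 0.43), and 1 was lower. Of 12 tested genes of a list of effector genes, the secreted factors Csf2, Ccl1 and Cxcl2 and the intracellular phosphatase Dusp10 were higher. Il10, the enkephalin precursor Penk, the chemokine Ccl5 and Odc1, an enzyme of polyamine synthesis, were lower. Of 11 tested immediate-early genes, all 11 were higher, with Fosb at 2.38 ± 0.21 and Atf3 at 2.50 ± 0.26; these transcripts also rise during tissue digestion, and the part of handling was not tested. Ifng (log2 difference -3.11 ± 0.44) and 3 of 5 tested ILC1 and NK cell genes were lower, as were 4 of 7 proliferation genes. Il22, an epithelial-defence cytokine, had 0 UMIs in the 103 untreated members and 1303 in the 632 untreated Cd3-positive barcodes. Trac, Cd4, Cd5, Cd6, Lck and Trbc2 were lower by 0.97 to 1.97 on the log2 scale, a difference tied to the Cd3 criterion and given with no test.

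After DSS, 104 of 3719 genes (2.8%) were called between the same populations, 56 higher (1.51%) and 48 lower (1.29%), and 51 of them were among the 380 of the untreated libraries. Rora (log2 difference 0.77 ± 0.17), Il2ra (1.83 ± 0.27) and Ptpn13 (1.44 ± 0.40) were higher in members under DSS too. Klrg1 (1.51, edgeR adjusted p = 0.0523), Id2 (0.53, adjusted p = 0.180) and Il7r (0.53, adjusted p = 0.379), higher in the untreated libraries, were not called there. Neither were Fosb, also higher without DSS, and Ifng, Il10 and Penk, which were lower without DSS. Il10 and Penk were not called over all 8 libraries either. Of the T-cell genes lower without DSS, Trac, Cd4 and Lck did not reach the threshold under DSS, whereas Trbc2 did. These genes are tied to the Cd3 criterion, so neither outcome is a test. Il22, at 0 in the untreated members, was higher than in the counterpart under DSS (log2 difference 2.24 ± 0.48, edgeR adjusted p = 0.00261), through the 6 members described below. Hs3st1, Arg1, Csf2 and Ccl1 passed the filter on low counts in the untreated fit but not in the DSS fit. After thinning to 1000 UMIs, Hs3st1 was found in 21.4% of untreated and 8.86% of DSS members, and in 0% and 0.133% of the counterpart. Arg1 was found in 18.4% and 1.27% of members and 0.322% and 0% of the counterpart. Csf2 was found in 14.3% and 0% of members and Ccl1 in 12.2% and 0%. In Col3a1-rich barcodes, which should lack lymphoid Arg1, Csf2 and Ccl1, the thinned shares of these genes were at most 0.156%, whereas Hs3st1 was found in 2.27% and 4.98% of them. Whether the differences from the counterpart depended on DSS was not tested by an interaction term.

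**Figure D3:**
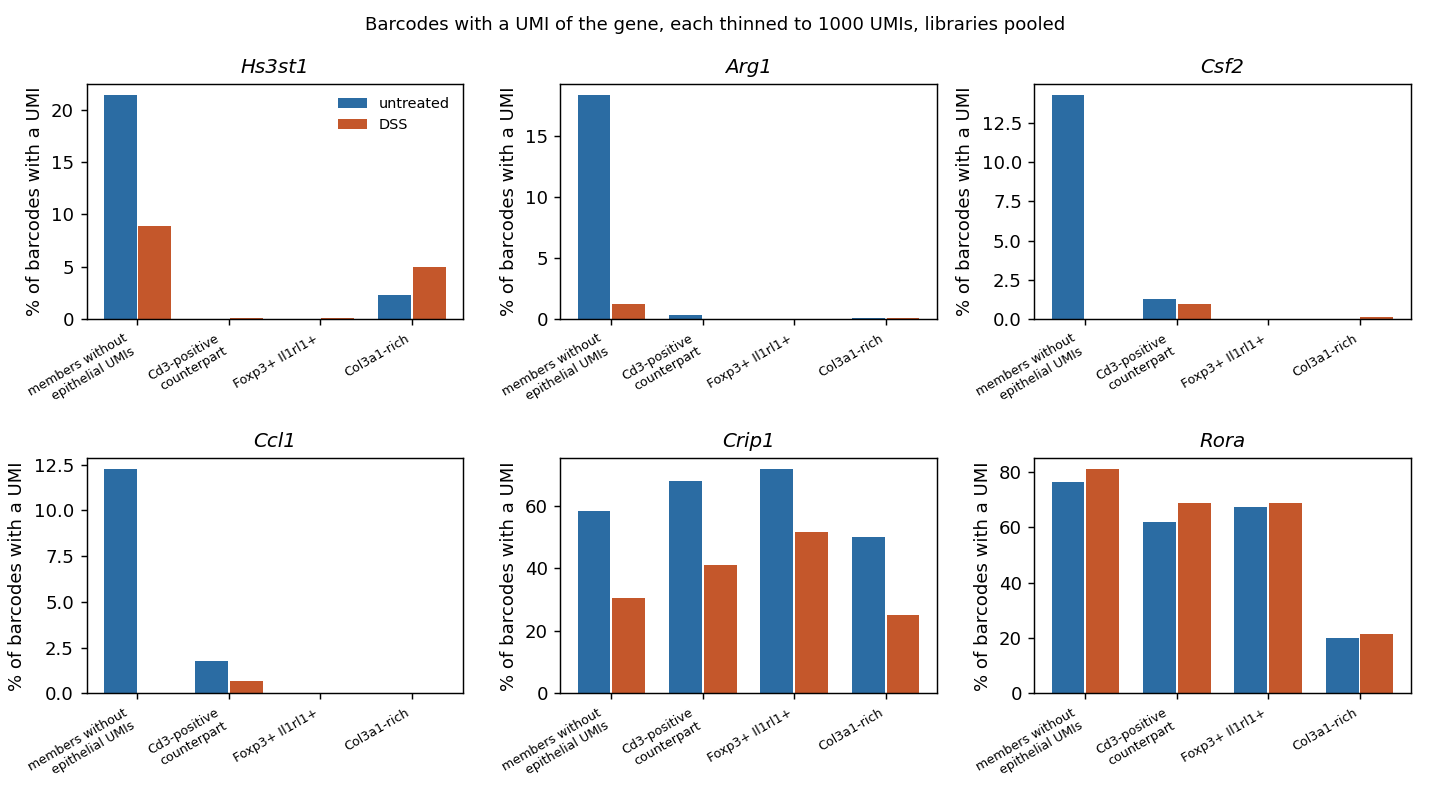
Share of barcodes with a UMI of 6 genes (bars, %), after thinning each barcode to 1000 UMIs, in members without epithelial UMIs, their Cd3-positive counterpart, Cd3-positive barcodes with Foxp3 and Il1rl1, and Col3a1-rich barcodes, libraries pooled by treatment. Hs3st1, Arg1, Csf2 and Ccl1 are highest in untreated members, at 12.2% to 21.4%, and Rora is shared among the lymphoid populations.

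In the fit over all 8 libraries, Hs3st1, Arg1, Csf2 and Ccl1 did not pass the filter on low counts. Among the 3647 genes tested, members without epithelial transcripts exceeded the counterpart most in Hilpda, a lipid droplet protein (log2 difference 3.23 ± 0.22, edgeR adjusted p = 3.9e-11). Hes1 (3.20 ± 0.55), Cxcl1, a neutrophil chemokine (2.89 ± 0.39), Lmo4, a transcriptional cofactor (2.80 ± 0.22), and Pxdc1 (2.68 ± 0.27) came next. Cxcl2, Gm20186, Kit, Nr4a1 and Cerk followed, at 2.15 to 2.64; in DSS libraries alone Cxcl2 (0.95, adjusted p = 0.247) and Cerk (1.58, adjusted p = 0.179) were not called. The genes most reduced in members were led by cell-cycle genes. Ube2c had 0 UMIs in these 195 members and 349 in the counterpart, at least 7.89-fold lower by the floor of 3 UMIs over the 195 (edgeR adjusted p = 0.000568). Hist1h1b had 2 and 1099 UMIs, a counterpart-to-member ratio of 37.3 (exact counting interval 10.3 to 308; adjusted p = 7.19e-08), Birc5 had 1 and 293 and Cks1b 3 and 316. Mki67, a proliferation marker, differed by -2.66 ± 0.43 on the log2 scale. Lag3, Sfn, Smc2, Pclaf and Hist1h2ap made up the rest of the 10. With all members the log2 difference was -0.02 for Ube2c (edgeR adjusted p = 0.994), -0.14 for Birc5 (0.915), 0.14 for Cks1b (0.893), -1.05 for Mki67 (0.169), -0.35 for Smc2 (0.679), -0.87 for Pclaf (0.177), -1.21 for Hist1h2ap (0.157) and 1.28 for Sfn (0.149), so these calls were made only once the epithelial-transcript members were left out. In DSS libraries alone Birc5, Cks1b, Lag3, Smc2 and Hist1h2ap were not called, and in untreated libraries alone Cks1b and Pclaf were not. The exclusion of epithelial-transcript barcodes did not apply to the counterpart. With barcodes of 2 or more epithelial UMIs left out of both populations, an alternative added after seeing the data, 255 of 3261 genes (7.82%) were called, of which 223 were among the 253. Hist1h1b (-5.00) and Mki67 (-2.62) were called there too, whereas Ube2c, Birc5, Cks1b, the epithelial gene Sfn, Cxcl1 and Cerk did not pass the filter on low counts. Members were shallower than the counterpart in every library, with medians of 1520.5 to 2711 UMIs, epithelial-transcript members left out, against 2303 to 4438.

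The second comparison was with 1032 Cd3-positive barcodes that carried Foxp3 and Il1rl1, the ST2-bearing regulatory T cells of the gut by gate, which share the IL-33 receptor with ILC2s. With all members 410 of 2693 genes (15.2%) were called, 218 higher (8.1%) and 192 lower (7.13%), or 43 higher and 906 lower with DESeq2; without epithelial-transcript members, 350 of 1701 (20.6%) were called, 226 higher (13.3%) and 124 lower (7.29%). Members had more Lmo4 (log2 difference 3.75 ± 0.27, edgeR adjusted p = 4.77e-09), Pxdc1 (3.77 ± 0.29), Hilpda (3.16 ± 0.23), Klf4 (2.48 ± 0.26) and Irs2, an insulin signalling adaptor (2.44 ± 0.20). Of 15 tested ILC2-associated genes, Rora, Id2, Cxcr6, Il2ra and Ptpn13 were higher and Crlf2, the TSLP receptor, and Ly6a were lower. The calls of Crlf2 and Ly6a were lost in untreated libraries alone (adjusted p = 0.0662 for both), in DSS libraries alone (0.434 and 0.399) and without T-cell UMIs, and Ly6a was at 0.18 with all members. Id2 and Il2ra were not called in DSS libraries alone (adjusted p = 0.246 and 0.0582) and, like Rora and Cxcr6, not with all members. Rora was higher by 0.77 ± 0.15 (edgeR, adjusted p = 0.000784), and was found in both populations. Members had less Ifi27l2a (-2.46 ± 0.20, edgeR adjusted p = 1.98e-08) and Gzmb (-2.17 ± 0.32). They also had less Penk, the enkephalin precursor of gut regulatory T cells (-2.12 ± 0.48, but -1.09 and not called in DSS libraries alone). Tnfrsf4, which encodes OX40 (-1.72 ± 0.27), and Ikzf2, which encodes Helios (-1.47 ± 0.23), were lower too. The gate required Foxp3 and the rule excluded it, so lower levels of genes that go with Foxp3 were favoured. Penk, Tnfrsf4 and Ikzf2 are therefore given with no test.

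The treatment comparison asked what DSS changed within the members, as the mean of the wildtype and the mutant contrast over 4 treated and 4 untreated libraries. With all members 149 of 1625 genes (9.17%) were called by edgeR, 99 higher (6.09%) and 50 lower (3.08%) after DSS. Of 10 squamous epithelial genes, all tested, 8 were higher, led by Krt14 (at least 359-fold by the floor of 3 UMIs, adjusted p = 0.0438), Krt6a (at least 256-fold) and Krt5 (at least 181-fold), all at 0 without DSS; their UMIs lay in the members described above as epithelial. Krt14 stood at 0 in all 4 untreated libraries and in wildtype DSS 1, and at 4203, 9540 and 2800 CPM in the other DSS libraries. Csf2 (log2 change -4.90 ± 0.74), Hs3st1 (-3.38 ± 0.67), Ccl1 and Il2 fell; Ccl1 had 93 UMIs without and 0 with DSS, and Il2 33 and 1. Leaving out wildtype DSS 1 gave 522 calls, leaving out wildtype DSS 2 gave 1, and leaving out any untreated library or mutant DSS 2 gave 0, so this count rests on single libraries.

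Without the epithelial-transcript members, 61 of 881 genes (6.92%) were called between the treatments, 34 higher (3.86%) and 27 lower (3.06%) after DSS, of which 15 were among the 149. With DESeq2 72 were called, 7 higher and 65 lower, where the median log2 change of all genes moved from 0.09 to -0.12; 27 of the 61 were called by both tools. Each of the 61 kept its direction when any 1 library was left out, although the count fell to 8 without mutant untreated 1 or mutant DSS 1, 16 without mutant DSS 2, 20 without wildtype untreated 2, 25 without mutant untreated 2 and 28 without wildtype DSS 1.

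Hs3st1, Arg1, Csf2 and Ccl1 were each called lower after DSS in the fit over 881 genes. The 4 were set apart by their levels in the same untreated libraries, so they are given gene by gene, and their common direction is no test of the set. Arg1 stood at 130 and 395 CPM in the wildtype untreated and 340 and 291 CPM in the mutant untreated libraries, against 0 and 18.9 CPM in the wildtype DSS and 20.5 and 0 CPM in the mutant DSS libraries. The treatments did not overlap. Over all 881 genes tested, all 4 DSS libraries lay below all 4 untreated ones for 74 (8.4%) and above for 63 (7.15%). The 65 UMIs without and 2 with DSS gave an untreated-to-DSS ratio of 23.3 (exact counting interval 6.18 to 196; edgeR adjusted p = 0.00547). With all members the change was -1.22 and not called, as the epithelial-transcript members held 906 of the 973 Arg1 UMIs and a single one of them 496. Csf2 stood at 143, 290, 240 and 247 CPM in the untreated libraries and at 0, 94.3, 20.5 and 0 CPM in the DSS libraries, again without overlap (log2 change -2.97 ± 0.77, edgeR adjusted p = 0.0383). Hs3st1 stood at 208, 1081, 441 and 628 CPM and at 0, 75.4, 369 and 65.6 CPM, so that mutant DSS 1 lay within the untreated range (log2 change -2.45 ± 0.63, edgeR adjusted p = 0.0383, with 0.127 as the highest over its alternatives). With 1 library left out in turn, Arg1 was called each time, Csf2 lost its call in 5 and Hs3st1 in 6 of the 8 fits.

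Ccl1 had 4, 12, 49 and 28 UMIs in the untreated libraries, 33 of them in 1 member, and 0 in the DSS libraries. With a floor of 3 UMIs over the DSS libraries, its level was at least 22.2-fold higher without DSS; edgeR gave an adjusted p of 0.00422, and the gene was called under each of the 12 alternatives that gave it a value. Il2 followed the same pattern, with 33 UMIs without and 0 with DSS, at least 7.87-fold higher without DSS, but 18 of them came from wildtype untreated 2 and the gene was not tested once the epithelial-transcript members were left out. Cyp51, an enzyme of sterol synthesis, had a log2 change of -4.66 ± 0.78 (edgeR, adjusted p = 0.00422), or -1.84 with all members (adjusted p = 0.0589). Hes1 fell by 3.47 on the log2 scale (SE 0.75, edgeR adjusted p = 0.0197). Its change was -0.85 with all members (adjusted p = 0.521) and -6.26 to -2.86 with 1 library left out, and the call was lost without T-cell UMIs and without mutant DSS 2, mutant untreated 1 or wildtype untreated 2.

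Crip1, a LIM-domain protein, and Lmna, given below, were on a list of T-cell genes under DSS, chosen with earlier results of these data known. Whether Crip1 changed more in members than in Cd3-positive barcodes was not tested. Crip1 stood at 2363, 1581, 2169 and 1390 CPM in the untreated and at 827, 377, 533 and 394 CPM in the DSS libraries, which did not overlap. The log2 change was -1.86 ± 0.30 (edgeR, adjusted p = 0.00422), and Crip1 was called under each of 13 alternatives. Of 11 tested immediate-early genes, Atf3 (-2.94 ± 0.50), Ier2 (-1.64 ± 0.34), Fosb (-1.50 ± 0.43) and Jund (-0.92 ± 0.22) fell and 0 rose, where 3.06% of all genes were called lower; the list's median was -0.92, beside 0.09 over all 881 genes. The summed level of the list overlapped between the treatments, at 9412 to 20936 CPM without and 6256 to 11312 CPM with DSS. Atf3 lost its call in 2, Ier2 in 4, Fosb in 8 and Jund in 7 of 13 alternatives, and the part of tissue digestion, to which these genes respond, was not tested. Lmna, a nuclear lamin (-1.57 ± 0.37), Fgl2, a secreted inhibitor of immune cells (-1.64 ± 0.44), Nfkbia, the inhibitor of NF-kB (-1.13 ± 0.29), and Furin, a protein convertase (-1.08 ± 0.29), also fell. Of 8 translation genes Rpl13 fell (-0.69 ± 0.19), and the list's median was -0.41; its summed level did not overlap, at 24173 to 35176 CPM without and 20035 to 23171 CPM with DSS. With 1 library left out in turn, Lmna, Fgl2, Nfkbia, Furin and Rpl13 each lost the call in 4 to 6 of the 8 fits.

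**Figure D4:**
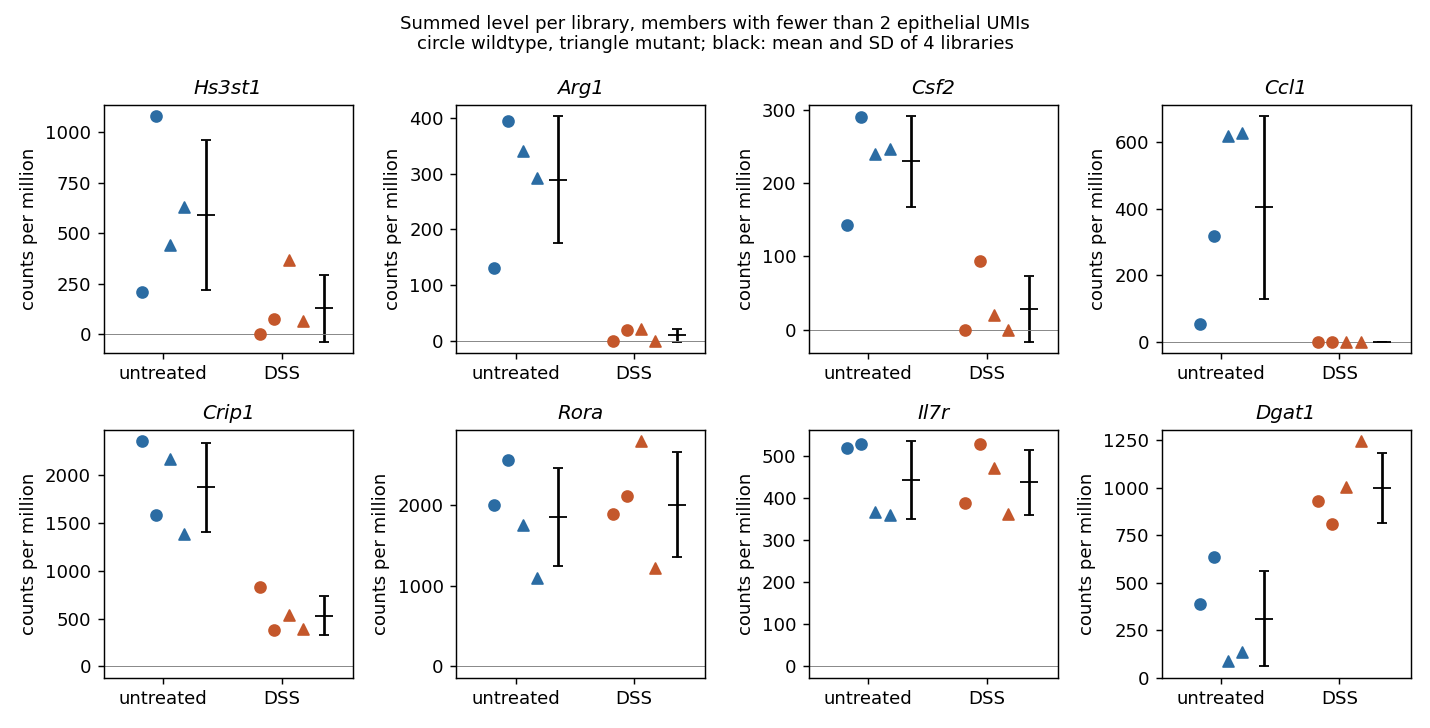
Summed level (CPM) of 8 genes in each library's members with fewer than 2 epithelial UMIs; circles are wildtype and triangles mutant libraries, and black bars show mean and SD of 4 libraries. Arg1, Csf2, Ccl1 and Crip1 do not overlap between treatments, Rora and Il7r do, and Dgat1 is higher in every DSS library.

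Of 15 tested ILC2-associated genes 3 were called, beside 61 of all 881 genes (6.92%): Hs3st1 and Arg1 fell and Il18r1 rose, and the list's median log2 change was 0.01. Rora stood at 1999, 2556, 1753 and 1098 CPM in the untreated and at 1887, 2112, 2790 and 1214 CPM in the DSS libraries (log2 change 0.14 ± 0.26, edgeR adjusted p = 0.756). Il7r, the IL-7 receptor on which ILC2s depend, stood at 519, 527, 366 and 359 CPM and at 388, 528, 472 and 361 CPM (0.01 ± 0.29, adjusted p = 0.976). Both genes overlapped between the treatments, and their sign changed with DESeq2. Of the 13 T-cell genes, 4 passed the filter on low counts and 0 of these were called. Members with a T-cell UMI were 22 of 103 without and 46 of 92 with DSS, so the 0 calls do not show an unchanged T-cell content.

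Among genes that rose after DSS, Dgat1, an enzyme of triglyceride synthesis, stood at 390, 633, 88.3 and 135 CPM in the untreated and at 931, 811, 1005 and 1247 CPM in the DSS libraries, without overlap (log2 change 2.07 ± 0.31, edgeR adjusted p = 0.00407). Ctla4, an inhibitory receptor of activated and regulatory T cells, stood at 143, 26.3, 37.8 and 179 CPM and at 750, 245, 964 and 623 CPM (2.64 ± 0.49, adjusted p = 0.00774). Leaving out the members with a T-cell UMI gave Ctla4 a log2 change of 3.67 (edgeR adjusted p = 0.00174). Il21r (2.47 ± 0.42), Got1 (2.08 ± 0.35), Stat5b (2.09 ± 0.57), Il18r1, the IL-18 receptor subunit (2.28 ± 0.61), Nmrk1 (3.91 ± 1.07), Madd (2.80 ± 0.78), Sbno1 (2.24 ± 0.59), Kcnq1ot1 (2.21 ± 0.57) and Nr4a3 (1.40 ± 0.30) also rose. With all members none of these was called: the log2 change was 0.46 for Dgat1 (edgeR adjusted p = 0.601), 1.32 for Ctla4 (0.372), 0.89 for Il21r (0.497), 0.76 for Got1 (0.508), 0.53 for Stat5b (0.754), 1.65 for Sbno1 (0.139), 1.56 for Kcnq1ot1 (0.104) and -0.11 for Nr4a3 (0.926), and Il18r1, Nmrk1 and Madd were without a test. With 1 library left out in turn, Dgat1 was called each time, Ctla4, Il21r and Got1 were lost without mutant DSS 1 or mutant untreated 1, and each of the others was lost in 6 to 8 of the 8 fits. Igha rose by 1.63 ± 0.40 (0.54 and not called with all members), and its share was also higher under DSS in the Col3a1-rich barcodes given above.

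With members carrying T-cell UMIs left out as well, 58 of 485 genes were called, and 29 of the 61 were among them. All 45 of the 61 that could be tested kept their direction. Of the genes named above, Hs3st1, Hes1, Fgl2, Lmna, Fosb, Jund, Furin and Nr4a3 lost their calls in this fit. Arg1, Csf2, Cyp51, Il21r, Stat5b, Il18r1, Nmrk1, Madd, Sbno1 and Kcnq1ot1 did not pass the filter on low counts there. The part of T cells in these differences was not tested further.

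Il22 was carried by 6 DSS members. It had 0 UMIs in the 103 untreated members, 79 UMIs in 3 members of wildtype DSS 1, 119 in 2 members of wildtype DSS 2, 1 UMI in mutant DSS 1 and 0 in mutant DSS 2. The 5 wildtype members held 7, 59, 13, 55 and 64 Il22 UMIs. Of these 5, 1 held 46 Il17a UMIs, 3 an Il23r UMI and 3 a T-cell UMI. Il17f stood at 1 and 9 UMIs in members of wildtype DSS 1, and each of the 5 held 1 or 2 Gata3 UMIs. Il22 passed the filter on low counts only through the wildtype DSS libraries, which favoured calls with Il22 high in that group. The level in wildtype DSS was at least 82.7-fold above that in wildtype untreated libraries by the floor of 3 UMIs. Il22 was the only gene called in wildtype mice (1 of 881, 0.114%; edgeR adjusted p = 5e-05), with 103 genes at an unadjusted p under 0.05 and 1 gene called by DESeq2. It was also the only one called between mutant and wildtype under DSS (1 of 881, 0.114%; wildtype-to-mutant ratio 171, exact counting interval 30.3 to 6789; edgeR adjusted p = 0.000213), where 53 genes had an unadjusted p under 0.05 and DESeq2 called 1. Both Il22 members of wildtype DSS 2 carried a T-cell UMI. Both counts moved with single libraries: 12 genes were called for DSS in wildtype mice without wildtype DSS 1 and 8 without wildtype untreated 1, and 7 between the genotypes under DSS without wildtype DSS 1. With members carrying T-cell UMIs left out as well, Il22 did not pass the filter on low counts and neither call remained: edgeR called 0 of 485 genes between mutant and wildtype under DSS, with 31 at an unadjusted p under 0.05, and 1 for DSS in wildtype mice, Ikzf2.

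In mutant mice DSS changed 24 of 881 genes (2.72%) without the epithelial-transcript members, 10 higher (1.14%) and 14 lower (1.59%), or 5 and 29 with DESeq2. This count fell to 0 without mutant DSS 1, 1 without mutant DSS 2 and 5 without mutant untreated 1, and was 44 and 41 without wildtype DSS 1 and 2. Ccl1, Cyp51, Atf3 (77 UMIs without and 2 with DSS, edgeR adjusted p = 0.00964), Arg1 (40 and 1 UMIs, adjusted p = 0.0419) and Crip1 (log2 change -1.96 ± 0.43, adjusted p = 0.028) fell and Dgat1 rose (3.34 ± 0.47, adjusted p = 0.00391). With all members none of these was called, and the change of Arg1 turned to 1.92. Leaving out mutant DSS 1 or mutant DSS 2 ended the call of each, leaving out mutant untreated 1 also that of Ccl1, Arg1, Crip1 and Dgat1, and leaving out mutant untreated 2 that of Arg1. The difference between the DSS effects in mutant and wildtype mice was called for 0 of 881 genes by edgeR and 0 by DESeq2, with 70 and 22 genes at an unadjusted p under 0.05; edgeR called 10 without wildtype DSS 1, 1 without mutant untreated 2 and 12 without the filter on low counts. The greater number of calls in mutant mice is thus no test of a difference between genotypes. With all members, edgeR called 0 of 1625 genes in wildtype mice, 0 in mutant mice, 0 for the mutation in either condition and 0 for the interaction; 165, 407, 33, 87 and 41 genes had an unadjusted p under 0.05, and DESeq2 called 2, 54, 0, 3 and 0.

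In untreated mice the mutant members had more of 4 heat-shock genes, the only calls among 881 genes (0.454%). Hspa1a stood at 195 and 26.3 CPM in wildtype and at 1778 and 785 CPM in mutant libraries (log2 difference 3.40 ± 0.64, edgeR adjusted p = 0.0311). Hspa1b (3.14 ± 0.56, adjusted p = 0.0235), Dnajb1 (2.91 ± 0.51, adjusted p = 0.0235) and Hsp90aa1 (1.51 ± 0.31, adjusted p = 0.0452) went with it. The summed level of the 12 immediate-early genes was 9412 and 11198 CPM in wildtype and 15495 and 20936 CPM in mutant untreated members. With 2 libraries in each group, this sum was not tested. Of these genes, 0 of the 11 tested were called; the log2 difference was 2.03 for Fos (adjusted p = 0.136) and 1.74 for Dusp1 (0.214). Chaperones and immediate-early genes also respond to handling of tissue, whose part was not tested. In the DSS libraries Hspa1a was at 310 and 396 CPM in wildtype and 246 and 525 CPM in mutant members and so overlapped. DESeq2 called 5 genes. Leaving out either wildtype untreated library or mutant untreated 1 gave 0 calls, leaving out either mutant DSS library 2, and leaving out wildtype DSS 1 or 2 gave 8 and 10; 0 genes of the ILC2 list were called. Mutant untreated 1 is also the untreated library with the high MHC class II level given above, whose part in these calls was not tested.

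The share of members among barcodes within the limits was 0.220 ± 0.0975% (SD, n = 4) without and 0.238 ± 0.00493% (n = 4) with DSS, and an exact two-sided permutation test gave p = 0.914, in a design that can reach a p under 0.05. Mutant and wildtype libraries stood at 0.221 ± 0.0442% and 0.238 ± 0.0871% (exact permutation p = 1). Without members carrying epithelial or T-cell UMIs the share was 0.173 ± 0.0691% in untreated and 0.0911 ± 0.0270% in DSS libraries, and an exact permutation test gave p = 0.0857. The number of cells per library was set by the CD4+ T cell isolation and the loading, so these shares are not tissue frequencies.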

How the data were processed

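The deposited tables hold UMI counts per gene and barcode for each of the 8 libraries, 1 numbered sample each. The authors made them from 10x single-cell reads. The submitters' processing notes name Cell Ranger 3.1.0, Seurat 4.0.1 and the mm10 build, without their roles. The members, gene lists and tests were chosen with earlier results of these data known, and the split by epithelial or T-cell UMIs was added after seeing the data. UMI counts were summed per library over members and tested with edgeR 4.0.16 (R 4.3.3; quasi-likelihood, TMM, filterByExpr with a minimum count of 10), with Benjamini-Hochberg adjustment over all genes tested and a threshold of 0.05. Contrasts of conditions used all 8 libraries with 1 coefficient per group. Comparisons of populations used libraries with at least 10 barcodes of both, counted over all members, also where an alternative left members out. They used library as a block and left out genes used by a gate. DESeq2 1.42.0, RLE size factors, no filter and the omission of each library were alternatives. Shares were tested over libraries by exact permutation (scipy 1.17.1), and intervals are exact Clopper-Pearson at 95%. A floor of 3 counts stood for a group at 0. Intervals and floors cover counting error only.

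Counts were simulated for the treatment contrast (members without epithelial transcripts). Of 106 genes changed by 1 on the log2 scale 49.1% were recovered, and of 94 changed by 2 97.9%, while 8 of 635 unchanged genes were called. The changed genes were drawn from those above the median level, and every gene had the same simulated spread. These rates do not cover genes with few UMIs or the fit over all members. Genes named are those of the lists and, per comparison, up to 10 called genes with the largest change in each direction, V and immunoglobulin genes aside; the others were named after their values were seen. Whether the 2 libraries of a group came from separate mice is not stated beyond the different numbers in their titles. The p-values measure the spread between libraries. No batch is named in the sources used here. One comparison of populations, and the alternatives tied to it, are not reported here.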

Additional observations from a re-analysis of the deposited data

How the results depend on the processing

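The counts below are genes called in each comparison, first over all 224 members. Without the low-count filter there were 68 calls for DSS in wildtype mice, 330 for DSS in mutant mice, 468 for the mean DSS contrast, 6 for the mutation in untreated mice, 44 for it under DSS, 6 for the interaction, 1674 against the Cd3-positive counterpart and 2004 against Foxp3-positive barcodes. With DESeq2 there were 2, 54, 3, 1582 and 949 for DSS in wildtype, DSS in mutant, mutation under DSS, counterpart and Foxp3-positive barcodes. Leaving out members with other-lineage UMIs kept members in 7 libraries. They numbered 11 and 6 in the wildtype untreated and 11 and 3 in the mutant untreated libraries. The DSS libraries kept 4 and 0 in wildtype and 1 and 7 in mutant mice. Wildtype DSS was then 1 library, so counts of contrasts that use it are left out. DSS in mutant mice gave 9 calls, with 1 member in mutant DSS 1. There were 176 calls against the counterpart and 92 against Foxp3-positive barcodes. The minimum of 10 barcodes for comparisons of populations was applied to all 224 members, so all 7 libraries entered these fits. Only wildtype untreated 1 and mutant untreated 1 still held 10 or more members, so these counts rest on few members. Leaving out the epithelial-transcript members gave 1, 24, 61, 4 and 1 calls for DSS in wildtype, DSS in mutant, mean DSS, mutation untreated and mutation under DSS, and leaving out T-cell UMIs as well gave 1, 16, 58, 4 and 0 for these. An effector sum of at least 3 gave 1 call for DSS in mutant mice. Without the library block (no replicate block) there were 848 calls against the counterpart and 768 against Foxp3-positive barcodes.

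With 1 library left out in turn, the calls ranged from 0 to 59 for DSS in wildtype (59 without wildtype DSS 1), 0 to 285 in mutant (285 and 280 without wildtype DSS 1 and 2), 0 to 522 for the mean DSS contrast, 0 to 44 for the mutation under DSS (44 without wildtype DSS 2), 140 to 532 against the counterpart (140, 173 and 197 without mutant DSS 2, wildtype DSS 2 and mutant DSS 1) and 200 to 500 against Foxp3-positive barcodes (200 and 233 without wildtype DSS 2 and mutant DSS 1). Without epithelial-transcript members the mean DSS contrast ranged from 8 to 88 (149 with all members), and the mutation in untreated mice from 0 to 10 (0 with all members, 19 without the filter). The causes were not tested.

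The DSS-minus-untreated difference in member share, 0.0180 percentage points, was -0.0128 over Ptprc-positive barcodes, -0.0384 without other-lineage members, -0.0334 without epithelial-transcript members, -0.0817 without T-cell UMIs as well, and -0.0109 to 0.0602 with 1 library left out. The mutant-minus-wildtype difference, -0.0170, was 0.00896 without other-lineage members, -0.0923 after thinning to 1000 UMIs and -0.0518 to 0.0193 with 1 library left out.

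Of 947 alternative values for 129 named gene results, 605 kept direction and call, 316 kept direction but not the call, and 26 changed sign. The DSS change of Rora was -0.0405 with DESeq2, -1.35 with all members, -0.10 without the filter and -0.29 to 0.27 with 1 library left out. That of Il7r was -0.195 with DESeq2, -0.0255 with RLE, -1.65 with all members, -0.23 without the filter and -0.235 to 0.0265 with 1 library left out. With all members the DSS change was -0.11 for Nr4a3 and, in mutant mice, 1.92 for Arg1; the difference from the counterpart was -0.0355 for Il7r, 1.28 for Sfn and 0.14 for Cks1b, and that from Foxp3-positive barcodes 0.18 for Ly6a. In DSS libraries Klf5 and Il22 differed from the counterpart by -0.86 and 2.24. No paired analysis was run, as each title carries a different number and no label states a pairing between groups. Members hold a median of 1951 UMIs, so a transcript at 0 in a member may be missed.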
